A study of Mus musculus with 8 samples.

Results

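The transcription factors Zic1, Zic2, Zic5, Meis1 and Meis2 were followed in the optic fissure, the ventral cleft of the optic cup through which vessels enter the eye and whose edges later fuse. Every probe set of the array whose annotation names 1 of these 5 genes was taken, whatever its signal. The 5 genes were among 18194 that the annotation names by 1 symbol, and they had 13 probe sets of 45101 in the table, 2 for Zic1, 1 for Zic2, 3 for Zic5, 3 for Meis1 and 4 for Meis2. Of these, 12 were among the 27022 probe sets tested, and 1 probe set of Zic5 had too low a mean signal to be tested.

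Zic proteins are zinc-finger factors related to the Gli factors of hedgehog signalling, and they act in neural tube closure, in the midline of the forebrain and in keeping neural precursors undifferentiated. In the mouse retina Zic2 is known for steering ganglion cell axons to the same side of the brain through the guidance receptor Ephb1. Meis proteins are homeodomain factors of the TALE class, which bind DNA together with Pbx partners, and in the eye they are known for upholding Pax6 expression and the division of retinal progenitors. Members of both families are also expressed in the mesenchyme around the eye.

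The embryos were wild-type mice of strain C57BL/6 (C57BL6/J in the collection protocol), with no treatment and no altered gene in any group, and fissure cells were taken from cryosections with a laser. Embryonic day 10.5 (E10.5) was measured on 3 arrays, E11.5 on 3 and E12.5 on 2, lettered A to C within a stage. Each array held the pooled RNA of 3 embryos, which a label places in a single litter and the extraction protocol in separate litters, and the RNA had been amplified in 2 rounds. If the arrays of a stage are not from separate pools of embryos, p-values measure only their technical spread.

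Values are deposited log2 signals, and a change is a difference of stage means on that scale, so that 1 unit is a doubling. Of 7 listed optic stalk and fissure markers, 6 were measured, meaning that a probe set was annotated to that gene alone. All 6 were above the signal filter. For Pax2, the other marker, no probe set was annotated to that gene alone. Array medians lay between 4.37 and 4.48, but the 99th percentile of log2 signal ran from 12.5 to 12.9 at E10.5, from 11.2 to 12.4 at E11.5 and from 12.5 to 12.6 at E12.5. The median change over all probe sets from E10.5 to E11.5 was -0.18 in the deposited values. It was -0.02 once quantile normalization had given all arrays the same distribution of signal. From E11.5 to E12.5 the median went from 0.10 to -0.04 in the same way. Values under both scalings are given for the changes on which the results turn.

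Zic1 lies beside Zic4 on chromosome 9, with no other protein-coding gene between them in the RefSeq annotation, and Zic5 lies beside Zic2 on chromosome 14 in the same way. The 250 bases before the RefSeq start of Zic1, Zic4 and Zic5 are shown because a probe set of Zic5 was the only member to pass the test and because Zic4, the neighbour of Zic1, fell from E10.5 to E12.5. They are written 5′ to 3′ on the gene's strand from assembly GRCm38.p6. The windows are chr9:91365769-91366018 (minus strand) for Zic1, chr9:91368722-91368971 (plus strand) for Zic4 and chr14:122465659-122465908 (minus strand) for Zic5. Capitals mark a match to TGACAG, the hexamer that Meis proteins bind.
Zic1 promoter: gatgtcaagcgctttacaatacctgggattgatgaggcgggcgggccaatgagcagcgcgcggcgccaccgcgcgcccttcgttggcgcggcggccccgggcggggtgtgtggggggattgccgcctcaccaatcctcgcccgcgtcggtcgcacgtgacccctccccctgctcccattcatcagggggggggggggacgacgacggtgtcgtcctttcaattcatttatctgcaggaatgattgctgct
Zic4 promoter: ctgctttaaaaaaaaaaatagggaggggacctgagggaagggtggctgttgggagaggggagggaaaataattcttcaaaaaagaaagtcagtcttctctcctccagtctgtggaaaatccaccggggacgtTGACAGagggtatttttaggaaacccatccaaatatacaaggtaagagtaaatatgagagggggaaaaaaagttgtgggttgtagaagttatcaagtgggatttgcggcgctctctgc
Zic5 promoter: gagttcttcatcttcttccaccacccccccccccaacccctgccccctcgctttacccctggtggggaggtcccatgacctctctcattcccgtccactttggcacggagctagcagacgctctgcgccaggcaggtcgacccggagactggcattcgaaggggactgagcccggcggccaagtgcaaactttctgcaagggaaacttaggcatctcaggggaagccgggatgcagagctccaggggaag
The Zic1 window had 66% G and C and the Zic5 window 62.4%, against 44.4% for Zic4. TGACAG, searched on both strands, occurred once in the Zic4 window, starting 118 bases before the gene's start, and was not found in the windows of Zic1, Zic5, Meis1 or Meis2. Of 32851 promoter windows of the same length, 15.9% held it. CAGCAGG, a motif bound by Zic proteins, was in none of these 5 windows and in 8.44% of all windows. The table matched 4 of the 5 members, and the promoter of Zic2 was not analysed here.

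Few of the 12 tested probe sets passed a threshold of 0.05 for the Benjamini-Hochberg adjusted p of limma, in a single model of stage over all 8 arrays. From E10.5 to E11.5, 0 of 12 passed (0.126% of all probe sets tested), and 4 had an unadjusted p below the threshold (19.4% of all). From E11.5 to E12.5, 1 of 12 passed (1.82% of all), and 7 had an unadjusted p below it (16.7% of all). From E10.5 to E12.5, 1 of 12 passed (4.64% of all), and 5 had an unadjusted p below it (22.2% of all). The F test for any stage difference called 0 of 12 (2.92% of all), with 8 below the threshold before adjustment (24.5% of all). The test of whether the second day's change differed from the first day's called 0 of 12 (0.241% of all), with 6 below it before adjustment (16.6% of all). The median change of the 12 probe sets as deposited was -0.24 for the first day and 0.63 for the second, beside -0.18 and 0.10 over all probe sets. After quantile normalization the second-day change was lower on each of the 12, and the median over all probe sets was -0.04. The median of the 12 was not taken under that scaling.

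In the deposited values arrays of neighbouring stages often did not overlap. From E11.5 to E12.5 both E12.5 arrays lay above all E11.5 arrays for 7 of 12 probe sets (29.6% of all) and below them for 3 (14.1% of all). The 7 were both of Zic1, the 1 of Zic2, both tested of Zic5 and 2 of Meis1, and the 3 were all of Meis2. After quantile normalization Zic1 1423477_at and Meis1 1443260_at no longer separated these stages. Meis2 1457632_s_at, which had overlapped, then lay below at E12.5. From E10.5 to E11.5 the counts were 1 above (3.57% of all) and 3 below (19.3% of all), and from E10.5 to E12.5 they were 4 above (19.3% of all) and 2 below (25.7% of all).

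**Figure D1:**
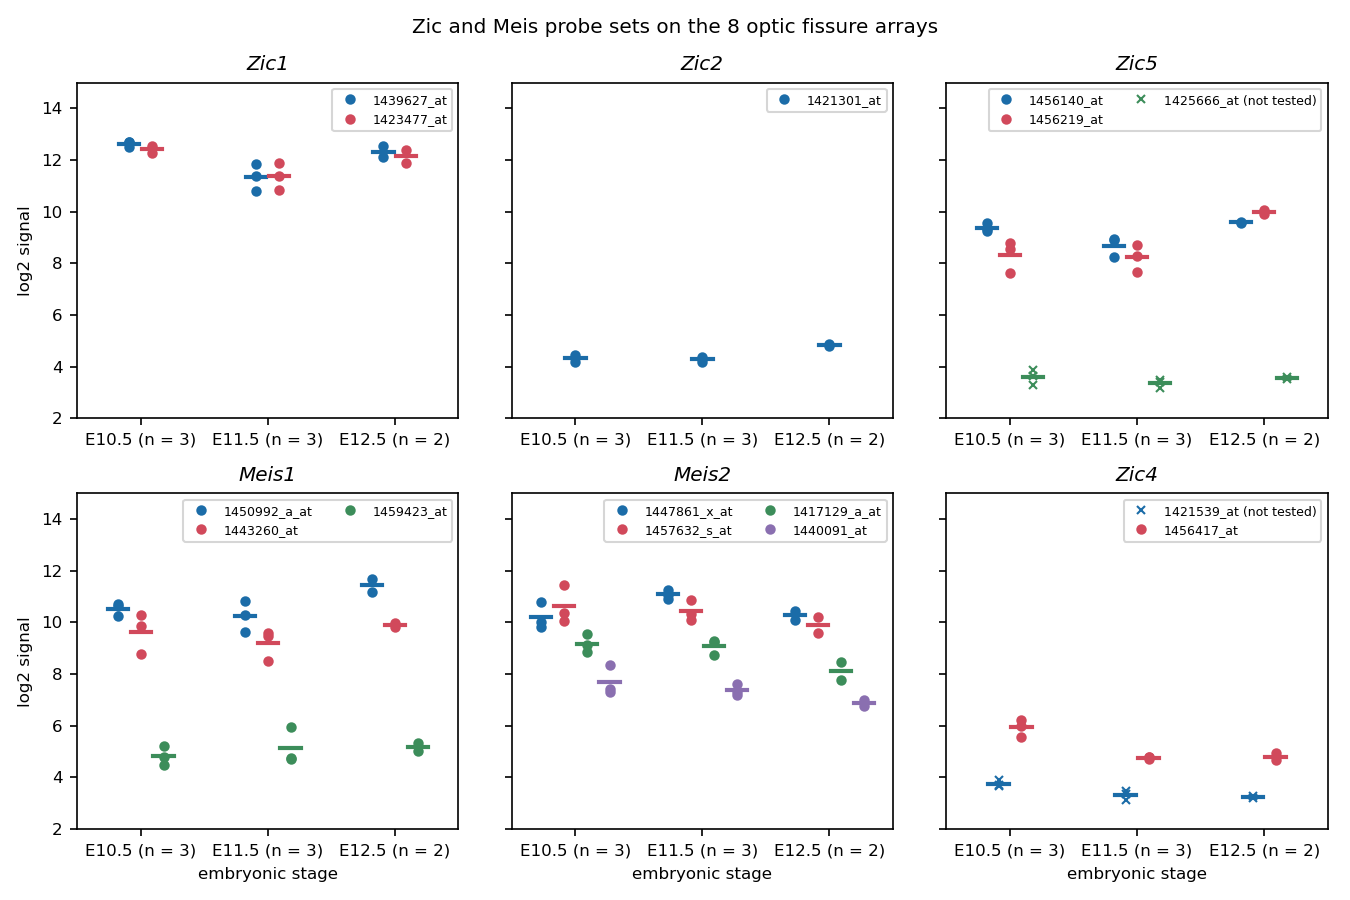
Log2 signal (vertical axis) of each probe set of the 5 genes and of Zic4 on the 8 arrays, grouped by stage. Each point is an array, each line a stage mean, and crosses mark probe sets too dim to be tested. Both Zic1 probe sets are lowest at E11.5, Zic5 1456219_at stands at 9.93 and 10.1 at E12.5, and 3 of the 4 Meis2 probe sets have their lowest mean at E12.5.

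Zic1 had bright and similar readings from both of its probe sets. Probe set 1439627_at gave log2 signals of 12.70, 12.71 and 12.49 on the E10.5 arrays, 10.78, 11.39 and 11.84 on the E11.5 arrays and 12.54 and 12.12 on the E12.5 arrays. The E11.5 arrays were the lowest 3 of the 8 and differed most among themselves. Stage means were 12.64 ± 0.13 (SD, n = 3), 11.34 ± 0.53 (SD, n = 3) and 12.33 ± 0.30 (SD, n = 2), so E11.5 stood apart, while E10.5 and E12.5 overlapped. The change from E10.5 to E11.5 was -1.30 (SE 0.35), with a limma adjusted p of 0.153, and from E11.5 to E12.5 it was 0.99 (SE 0.39, adjusted p 0.239). Probe set 1423477_at read 12.44, 12.55 and 12.28 at E10.5, 10.83, 11.38 and 11.88 at E11.5 and 12.39 and 11.88 at E12.5, with changes of -1.06 (adjusted p 0.168) and 0.77 (adjusted p 0.343). The dip at E11.5 thus had the same shape on both probe sets and did not pass the test on either.

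The Zic1 dip went with the upper end of the signal range, and its size depended on the scaling. After quantile normalization the first-day changes were -0.31 and -0.09, with adjusted p of 0.513 and 0.883, and the second-day changes were 0.27 and 0.06. The E11.5 arrays, in the order A, B and C, had 99th percentiles of 11.2, 11.8 and 12.4, and both Zic1 probe sets rank these arrays in the same order. For the Actb control, the log2 signal at the 3 prime end less that at the 5 prime end, a gauge of how far amplified transcripts were cut short, ran from 5.45 to 6.61 at E11.5, from 6.83 to 6.96 at E10.5 and from 6.88 to 7.21 at E12.5. Their part in the Zic1 values was not tested. In bulk samples such as these, fewer cells of a type and less RNA per cell cannot be told apart.

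Zic2, the factor of the uncrossed visual projection, was read near the lower end of the range. Its probe set 1421301_at gave 4.18, 4.46 and 4.34 at E10.5, 4.19, 4.29 and 4.36 at E11.5 and 4.79 and 4.86 at E12.5. Both E12.5 arrays were above the other 6, which overlapped with each other. E12.5 exceeded E11.5 by 0.54 (SE 0.17, adjusted p 0.154) and E10.5 by 0.49 (SE 0.17, adjusted p 0.124), and neither difference passed the test. The values changed little with quantile normalization, to 0.52 and 0.51. The filter on low signal stood at a mean log2 of 3.94, so a change of this probe set can understate that of the transcript.

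Zic5, the neighbour of Zic2, gave the single call among the members. Its probe set 1456219_at read 8.55, 8.80 and 7.63 at E10.5, 7.66, 8.30 and 8.72 at E11.5 and 10.08 and 9.93 at E12.5. The E10.5 and E11.5 arrays spread over the same range, and both E12.5 arrays lay above all of them. The signal rose 3.43-fold from E11.5 to E12.5 (log2 change 1.78, SE 0.40, limma adjusted p 0.0460) and 3.20-fold from E10.5 to E12.5 (log2 change 1.68, SE 0.40, adjusted p 0.0363). The change from E10.5 to E11.5 was -0.10 as deposited and 0.24 after quantile normalization, and the F test gave an adjusted p of 0.0508.

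Both calls for Zic5 1456219_at were close to the threshold. With single arrays left out, the second-day change stayed between 1.50 and 2.03, but the call ended without E10.5 A (adjusted p 0.0617), E10.5 B (0.0663), E11.5 A (0.169), E11.5 B (0.153), E12.5 A (0.223) or E12.5 B (0.400). The difference of E12.5 from E10.5 stayed between 1.33 and 1.91, and its call ended without E10.5 A (adjusted p 0.0586), E10.5 C (0.0590), E11.5 B (0.0691), E12.5 A (0.187) or E12.5 B (0.259). After quantile normalization the 2 changes were 1.42 (adjusted p 0.0662) and 1.65 (adjusted p 0.0210).

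The other Zic5 probe sets did not follow 1456219_at closely. Probe set 1456140_at gave 9.32, 9.25 and 9.56 at E10.5, 8.23, 8.94 and 8.90 at E11.5 and 9.56 and 9.60 at E12.5. Its lowest 3 arrays were those of E11.5, and its E12.5 arrays barely exceeded the highest E10.5 array. The changes were -0.69 (SE 0.27, adjusted p 0.211), then 0.90 (SE 0.31, adjusted p 0.178), and 0.20 (SE 0.31, adjusted p 0.728) from E10.5 to E12.5. After quantile normalization they were -0.21, 0.47 and 0.26. Probe set 1425666_at, the one below the filter, read 3.27, 3.87 and 3.65 at E10.5, 3.49, 3.18 and 3.42 at E11.5 and 3.59 and 3.50 at E12.5. Its E12.5 arrays lay just above those of E11.5, and both stages overlapped with E10.5. A difference of E12.5 from E10.5 was thus called on 1 of the 2 tested probe sets of Zic5, and 1425666_at was not tested.

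**Figure D2:**
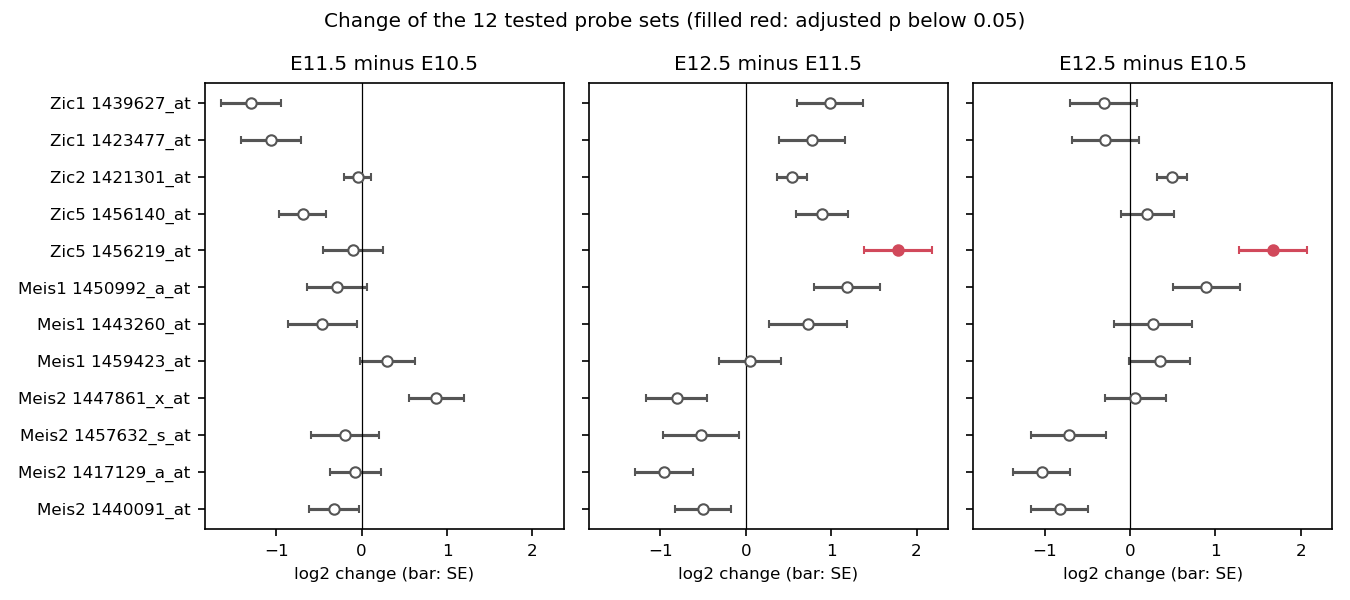
Log2 change of the 12 tested probe sets (rows) in the 3 comparisons of stages (panels), with bars for the standard error from limma. Red points passed the adjusted test. Zic5 1456219_at is the single red row, at 1.78 from E11.5 to E12.5 and 1.68 from E10.5 to E12.5.

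Meis1, a partner of Pbx proteins, had its highest mean at E12.5 on each of its 3 probe sets. Probe set 1450992_a_at gave 10.63, 10.26 and 10.73 at E10.5, 9.62, 10.27 and 10.84 at E11.5 and 11.67 and 11.19 at E12.5. Both E12.5 arrays exceeded the other 6, and E10.5 and E11.5 overlapped. E12.5 was above E11.5 by 1.19 (SE 0.39, adjusted p 0.166) and above E10.5 by 0.89 (SE 0.39, adjusted p 0.207). After quantile normalization the first value was 0.59 (adjusted p 0.185), and the second was 1.03 and passed the test (adjusted p 0.0185). Without E11.5 C the second-day change was 1.48 and passed as well (adjusted p 0.0496). The first-day change turned from -0.29 to 0.44 under quantile normalization and was not called under either scaling.

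Probe set 1443260_at of Meis1 read 9.87, 8.79 and 10.28 at E10.5, 8.50, 9.58 and 9.48 at E11.5 and 9.84 and 9.99 at E12.5. Its E12.5 arrays were above those of E11.5 but lay within the wide range of E10.5. The second-day change was 0.73 (SE 0.45, adjusted p 0.447), or 0.27 after quantile normalization (adjusted p 0.741). Probe set 1459423_at was dim, at 4.47, 4.79 and 5.23, then 4.74, 5.95 and 4.70, then 5.02 and 5.33, and all its stages overlapped. Its second-day change of 0.05 (SE 0.36, adjusted p 0.969) turned to -0.014 under quantile normalization.

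Meis2, the paralogue of Meis1, had lower means at E12.5 than at E10.5 on 3 of its 4 probe sets, and none of these differences passed the test as deposited. Probe set 1417129_a_at gave 9.55, 8.84 and 9.11 at E10.5, 8.75, 9.26 and 9.27 at E11.5 and 8.48 and 7.79 at E12.5. Both E12.5 arrays were below the other 6. The second-day change was -0.96 (SE 0.34, adjusted p 0.187), and E12.5 stood below E10.5 with a difference of -1.03 (SE 0.34, adjusted p 0.101). After quantile normalization they were -1.42 (adjusted p 0.0207) and -0.98 (adjusted p 0.0435), both past the threshold.

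The same order of stages was seen on the dimmer Meis2 probe set 1440091_at, at 8.35, 7.44 and 7.30, then 7.18, 7.63 and 7.31, then 6.99 and 6.76. Its E12.5 arrays were again the lowest of all, with a difference from E10.5 of -0.82 (SE 0.33, adjusted p 0.172). Its second-day change was -0.50 as deposited and -0.78 after quantile normalization, neither called. Probe set 1457632_s_at read 11.45, 10.36 and 10.04 at E10.5, 10.08, 10.33 and 10.86 at E11.5 and 10.21 and 9.59 at E12.5. There the stages overlapped, and the difference of E12.5 from E10.5 was -0.72 (SE 0.44, adjusted p 0.364). The second-day change was -0.52 as deposited and -1.16 after quantile normalization, neither called.

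The brightest Meis2 probe set by mean signal, 1447861_x_at, took another course. It gave 10.01, 10.80 and 9.83 at E10.5, 10.93, 11.26 and 11.08 at E11.5 and 10.46 and 10.10 at E12.5. The E11.5 arrays were the highest 3 of the 8, while E10.5 and E12.5 overlapped. The changes were 0.87 (SE 0.32, adjusted p 0.191) and then -0.81 (SE 0.36, adjusted p 0.284), and after quantile normalization they were 1.69 (adjusted p 0.0888) and -1.51 (adjusted p 0.0768). The manufacturer's suffixes of 1447861_x_at and 1457632_s_at mark probes that can also match other transcripts, so these readings are less certain to be of Meis2.

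Because Meis1 and Meis2 probe sets leaned in opposite directions at E12.5, their difference was taken within each array, which removes a shift of equal size in both genes, though not one that depends on brightness. This measure, and that for Zic5 and Zic1 and for Zic1 and Zic4, was chosen after the values had been seen. Each gene was the mean of its tested probe sets, and only changes of the difference carry meaning, since probe sets differ in brightness. For Meis1 minus Meis2 it was -1.52, -1.42 and -0.32 at E10.5, -1.61, -1.02 and -1.29 at E11.5 and -0.19 and 0.28 at E12.5. Both E12.5 arrays were above the other 6, and E10.5 C was the nearest of these to them. The gain from E11.5 to E12.5 was 1.35, with an exact two-sided permutation p of 0.1, the smallest that 3 arrays against 2 allow, and 0.225 after adjustment over 9 such comparisons. From E10.5 to E12.5 it was 1.13 (exact permutation p 0.2, adjusted 0.3). After quantile normalization the 2 gains were 1.50 and 1.12, with the E12.5 arrays still above all others.

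The first-day course of Zic5 minus Zic1 depended on the scaling. As deposited it was -3.64, -3.61 and -3.79 at E10.5, -2.86, -2.77 and -3.05 at E11.5 and -2.64 and -2.24 at E12.5, and no array of a stage overlapped with another stage. The gains were 0.78 on the first day and 0.46 on the second, each with an exact permutation p of 0.1, the smallest possible here, and 0.225 after adjustment. After quantile normalization E10.5 and E11.5 overlapped, with a first-day gain of 0.21 (exact permutation p 0.4) and a second-day gain of 0.78 (exact permutation p 0.1), and the E12.5 arrays stayed above all others. As deposited, Zic1 minus the tested probe set of Zic4 had means of 6.59 ± 0.44 (SD, n = 3), 6.58 ± 0.57 (SD, n = 3) and 7.44 ± 0.53 (SD, n = 2), with exact permutation p of 1, 0.3 and 0.2 for the first day, the second day and both days. After quantile normalization its changes were 0.92 on the first day, where -0.01 had been found, 0.18 on the second, where 0.86 had been found, and 1.11 over both, with exact permutation p of 0.1, 0.7 and 0.2. The timing of this difference therefore turned with the scaling, and the Zic4 readings were dim at E11.5 and E12.5. Groups of this size cannot give an exact p below 0.1.

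**Figure D3:**
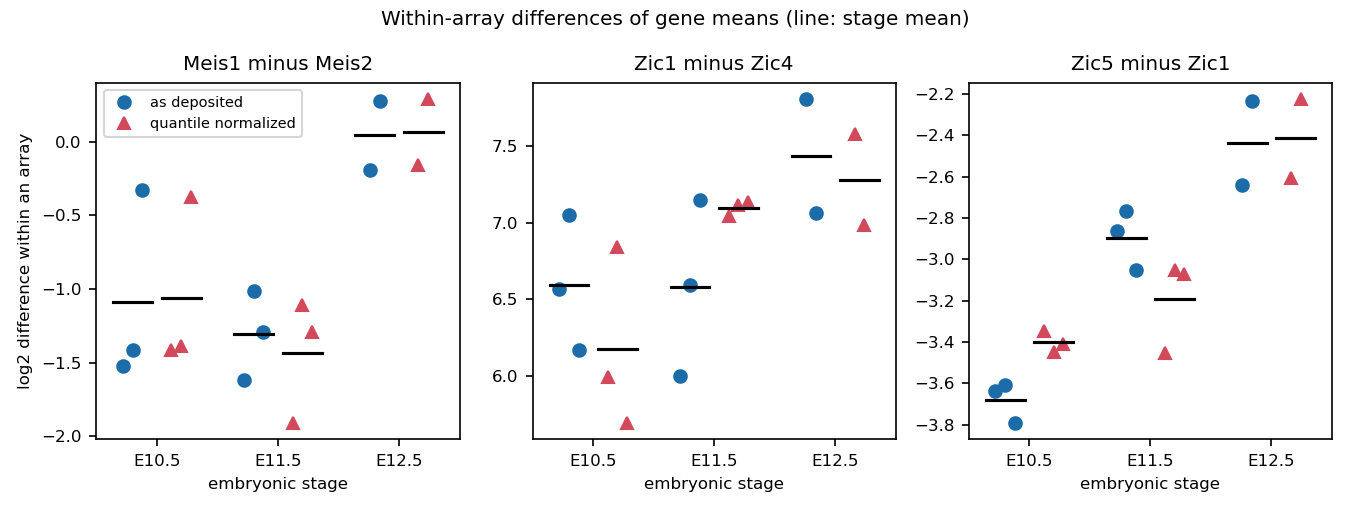
Log2 differences between gene means within each array (vertical axes, each with its own range), by stage, for Meis1 minus Meis2, Zic1 minus Zic4 and Zic5 minus Zic1, as deposited (circles) and after quantile normalization (triangles). Each point is an array, and lines are stage means. Both E12.5 points of Meis1 minus Meis2 lie above all earlier arrays under both scalings, while the 3 stages of Zic5 minus Zic1 do not overlap as deposited but do at E10.5 and E11.5 after quantile normalization.

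In the rest of the Zic family, Zic4 fell. Its probe set 1456417_at read 6.01, 5.58 and 6.22 at E10.5, 4.81, 4.80 and 4.71 at E11.5 and 4.66 and 4.93 at E12.5. All 5 later arrays lay below the 3 of E10.5, and E11.5 and E12.5 overlapped. These later readings were near the lower end of the range, like those of Zic2, so changes of this probe set can understate those of the transcript. From E10.5 to E12.5 it fell by 1.14 on the log2 scale (SE 0.23, limma adjusted p 0.0193), by 1.13 after quantile normalization, and the call ended without E12.5 A or E12.5 B (highest adjusted p 0.163). The first-day change was -1.17 with an adjusted p of 0.0690, and it was called with E10.5 B left out. The other Zic4 probe set, 1421539_at, was below the filter, at 3.65 to 3.91, then 3.11 to 3.47, then 3.22 to 3.28.

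Among TALE homeodomain genes, 9 were tested by their brightest probe set, and from E10.5 to E12.5 none rose (1 after quantile normalization, Meis1) and 2 fell, beside 3.49% higher and 1.78% lower among 13050 genes. The median change of the 9 was -0.13, beside -0.10 over all genes. Pbx3, of the family of Meis partners, fell by 1.73 on the log2 scale on 1447640_s_at (SE 0.36, limma adjusted p 0.0212), while its probe set 1421193_a_at gave -0.81 (adjusted p 0.0770). After quantile normalization 1421193_a_at passed as well (-0.81, adjusted p 0.0421). The suffix of 1447640_s_at, shared by the brightest Pbx2 probe set, marks probes that can also match other transcripts. The Pbx3 call ended without E10.5 A, E11.5 B, E12.5 A or E12.5 B (highest adjusted p 0.195). Pknox2, a TALE factor close to Meis, fell by 1.38 (SE 0.32, adjusted p 0.0335), and its call ended without E10.5 B, E10.5 C, E11.5 B or E12.5 B (highest adjusted p 0.484). Of the 3 probe sets of Pbx2, 1418893_at fell by 1.13 (SE 0.29, adjusted p 0.0487), and that call ended with 7 of the 8 arrays left out in turn (highest adjusted p 0.529). The brightest Pbx2 probe set, 1418894_s_at, gave -0.58 and the remaining one 0.0020, neither called.

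Meis3, Pknox1, Tgif1 and Tgif2 did not pass in that comparison, with changes of -0.16, 0.39, -0.12 and -0.13. Both probe sets of Pbx4 were below the filter. No TALE or Zic gene passed from E10.5 to E11.5 or from E11.5 to E12.5 by its brightest probe set. The call of Zic5 for the second day was therefore on a probe set that is not the brightest of its gene.

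**Figure D4:**
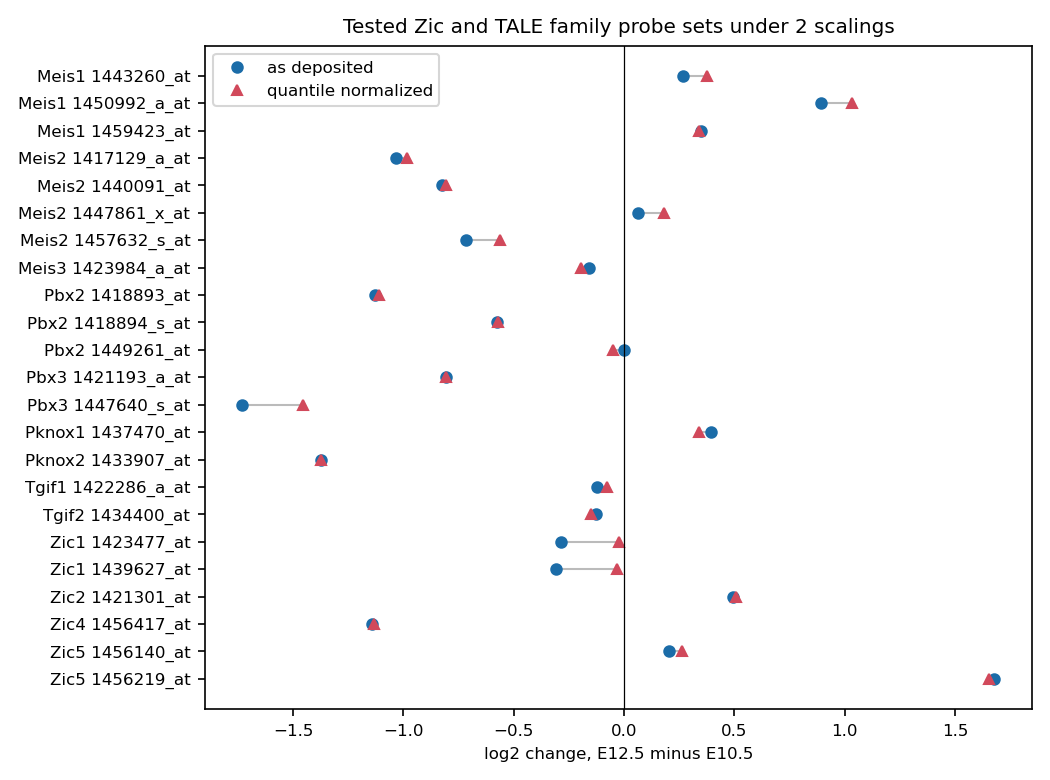
Log2 change from E10.5 to E12.5 (horizontal axis) of each tested probe set of the Zic and TALE families (rows), as deposited (circles) and after quantile normalization (triangles). Zic5 1456219_at, at 1.68, is highest under both scalings, and Pbx3 1447640_s_at, at -1.73 and -1.46, is lowest.

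Genes listed as reported targets or partners of Zic and Meis factors were counted by their brightest probe set. Of 6 tested partners and targets of Zic, 0 passed from E10.5 to E11.5, 1 rose from E11.5 to E12.5 (1.79% of all genes) and 1 fell from E10.5 to E12.5 (1.78% of all genes). After quantile normalization 0 rose and 2 fell from E11.5 to E12.5, and 1 rose and 1 fell from E10.5 to E12.5. Without E10.5 C, 1 fell from E11.5 to E12.5 and 1 rose from E10.5 to E12.5, and 1 rose in the latter without E12.5 A. The gene that rose on the second day as deposited was Ephb1, the receptor that Zic2 is known to induce in uncrossed axons, with a log2 change of 2.37 (SE 0.48, limma adjusted p 0.0301), a call that ended without E10.5 B, E11.5 A, E11.5 B or E12.5 B (highest adjusted p 0.474) and after quantile normalization (2.26, adjusted p 0.0548). Foxd1, a factor of the temporal retina, fell by 2.36 (SE 0.45, adjusted p 0.0138), which ended without E12.5 B (adjusted p 0.257). Of 8 reported Meis targets, Ccnd1, the cyclin that drives progenitors into division, rose from E11.5 to E12.5 by 1.89 (SE 0.34, adjusted p 0.0161), which ended without E11.5 B, E12.5 A or E12.5 B (highest adjusted p 0.278). The other 7, Pax6 among them, did not pass in that comparison, and 0 of the 8 passed in the others, although 2 rose from E10.5 to E12.5 after quantile normalization.

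In the hedgehog list, whose Gli factors are the relatives of Zic, 7 genes were tested. Hhip, an inhibitor that binds the ligand, rose by 1.23 on the second day (SE 0.27, limma adjusted p 0.0422) and by 1.33 over both days (adjusted p 0.0178). Gli1, a read-out of the pathway, fell by 0.90 over both days (SE 0.21, adjusted p 0.0339). The Hhip calls ended without E12.5 A (highest adjusted p 0.291 and 0.150), and the second-day call also without E10.5 B, E11.5 A, E11.5 B or E12.5 B and after quantile normalization (1.19, adjusted p 0.0683). The Gli1 call ended without E10.5 B, E11.5 B, E12.5 A or E12.5 B (highest adjusted p 0.327).

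Genes of neuron formation rose over the same day as Zic5 1456219_at. Of 12 tested genes of retinal neurogenesis, 9 rose from E11.5 to E12.5 and none fell, beside 1.79% higher and 0.238% lower among all genes, and their median change was 3.59 beside 0.11. Atoh7, Neurod1 and Neurog2, factors that start neuron formation, changed by 8.30, 5.89 and 6.89 on the log2 scale. Without E11.5 A the count was 5. Among 11 eye field and progenitor genes 5 rose and none fell in the same comparison, with a median of 1.31, and Hes5 and Fgf15 changed by 5.51 and 3.79. That count was 2 without E11.5 B, 3 without E12.5 A and 2 without E12.5 B. Among 7 neural crest genes 0 passed from E11.5 to E12.5, and 2 rose from E10.5 to E12.5, of which 1 was left without E10.5 A, E10.5 B, E11.5 B, E12.5 A or E12.5 B. Among 13 dorsoventral and nasotemporal factors 0 passed on either day, and 2 fell over both (1.78% of all genes), with 1 left when any array of E11.5 or E12.5 A was taken out and 0 without E12.5 B. Of the 2 that fell over both days as deposited, Foxd1 is the same gene that was counted in the Zic list. After quantile normalization 1 fell on the second day and 3 over both, and without E10.5 C 1 rose and 1 fell on the second day.

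Markers of other tissues around the fissure also differed between the stages. Of 12 listed genes of the mesenchyme around the eye 9 were above the filter, and the log2 of their summed signal, with all 11 measured genes included, ran from 8.39 to 8.87 at E10.5, from 9.88 to 10.8 at E11.5 and from 9.88 to 10.6 at E12.5. Ogn and Postn, matrix genes of mesenchyme, were among the 3 of 9 that rose on the first day (0.153% of all genes), of which 1 was left without E10.5 A, E10.5 C or E11.5 C and 0 without E11.5 B. From E10.5 to E12.5, 2 of 9 rose (3.49% of all genes). Of the defining markers Twist1 and Col1a1 were below the filter. For 11 pigment epithelium markers that signal ran from 12.2 to 13.3, from 12.3 to 13.4 and from 12.1 to 12.8. Of the pigment genes, 2 of 11 rose on the first day, Tyr and Oca2, with 1 left without E10.5 C, E11.5 B, E11.5 C, E12.5 A or E12.5 B. Tyr, the first enzyme of melanin synthesis, rose by 4.78 on the log2 scale (SE 0.42, limma adjusted p 0.00159), a call kept with each array left out. On the second day 0 passed as deposited and 3 fell after quantile normalization. From E10.5 to E12.5, 4 of 11 rose (3.49% of all genes) and 2, Trpm1 and Otx2, fell (1.78% of all genes). Those counts became 2 and 2 without E10.5 B, 1 and 2 without E12.5 A, 1 and 0 without E12.5 B, and 4 and 1 without E10.5 A, E10.5 C or E11.5 B.

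The summed signal of 11 lens markers, of which 5 were above the filter, ran from 7.50 to 7.77 at E10.5, from 8.95 to 9.27 at E11.5 and from 8.74 to 9.03 at E12.5. Cryab, a chaperone of the lens, rose by 3.89 on the first day (SE 0.36, limma adjusted p 0.00159). The other 4 tested were not called on that day, at 0.01 for Cryaa, -0.08 for Crybb1, -0.13 for Lim2 and 2.38 for Prox1. Cryba1, Cryga, Crygs, Mip, Bfsp1 and Foxe3 were below the filter. For 7 surface ectoderm markers, of which 4 were above it, the sum ran from 8.17 to 8.50, from 9.39 to 9.85 and from 8.75 to 8.92, and none was called by limma. Of the 6 fissure markers, Ntn1, a secreted guidance protein, fell by 2.47 on the second day (SE 0.30, adjusted p 0.00158) and fell by 4.04 over both days (adjusted p 3.57e-05). Zfp503, a zinc-finger repressor, fell by 1.98 over both days (SE 0.36, adjusted p 0.0121), a call that ended without E12.5 B (adjusted p 0.286). After quantile normalization 2 of the 6 fell on the second day and 3 over both, and without E10.5 C 1 fell on the first day. The part of all these markers in the Zic and Meis values was not tested.

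The genes most alike in course were sought in the deposited values only. They were those with the smallest root mean square difference of log2 signal over the 8 arrays, after centring each probe set on its mean. For Zic1 1439627_at they were Atp2a2 (0.138), Rpa1 (0.138) and Uhrf1 (0.138), and for Meis1 1450992_a_at they were St6gal1 (0.146), Rcbtb2 (0.165) and Cep97 (0.176). Atp2a2, a calcium pump, had stage means of 12.58, 11.37 and 12.17. Its dip at E11.5 follows from its choice as a gene close to Zic1. For Zic5 1456219_at, a comparison added after its values had been seen, they were Scoc (0.151), Ythdc2 (0.160) and Mtfr1 (0.171). The brightest probe sets of Zic2, Zic5 and Meis2 had stage means spanning less than 1 log2 unit, and no alike genes were sought for them.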

How the data were processed

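The authors deposited log2 values of 45101 probe sets on each of 8 arrays. The submitters' processing notes list GCOS 1.4 without saying what it was used for, and the summarization, background and normalization methods are not given in the sources used here. Per the labels' protocols the pooled RNA passed through 2 rounds of amplification, which favours 3 prime ends.

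Control probe sets (64) and the lowest 40% by mean log2 signal were left out. Gene names came from the platform annotation: 34958 probe sets had 1 symbol, 932 several and 9211 none, and those with several were not named. Stage was fitted to them with limma 3.58.1 under R 4.3.3 (stage as the only term, trended empirical Bayes, 5 residual degrees of freedom, two-sided), with Benjamini-Hochberg adjustment over 27022 probe sets.

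All member probe sets are named. Of the other lists, all Zic and TALE genes and up to 4 called genes per list and comparison were to be named, by the brightest probe set; fewer are named for lists far from the members. Other probe sets of the 2 families, the within-array differences, under both scalings, and the alike genes of Zic5 1456219_at were added after the values had been seen. The members and lists were chosen with earlier results of these data known. Promoter windows came from a RefSeq table (GRCm38.p6).

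Alternatives were quantile normalization, median centring, pseudocounts of 1 and 64, no filter or a filter of 60%, no trend, array weights, the replicate letter as a block, gene means and leaving out each array. Of 7 same-letter array pairs, 1 had deviations correlated above 0.1, so the letters were not taken as pairs.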

Additional observations from a re-analysis of the deposited data

How the results depend on the processing

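Counts of members called moved with the settings. From E10.5 to E11.5 the count of 0 became 4 with array weights. From E11.5 to E12.5 the count of 1 became 0 with median centring, without a filter, without a trend and with the replicate block, 10 with array weights, and 0 to 2 with single arrays left out, the 2 arising without E11.5 C. From E10.5 to E12.5 the count of 1 became 3 with quantile normalization, 3 with array weights, 0 with the replicate block and 0 to 1 with single arrays left out. The F test's 0 became 4 with quantile normalization, 1 with a pseudocount of 64, 1 with the filter of 60%, 10 with array weights and 0 to 2 with single arrays left out. The F test's calls over all probe sets under these settings were not counted, so its counts here say nothing about the members in particular. The count of 0 for the change of pace became 10 with array weights. Over all 27022 probe sets, array weights called 5017, 12520 and 3371 in the 3 comparisons and 12051 for the change of pace. The main fit called 34, 492, 1255 and 65. Quantile normalization called 46, 415 and 1663 in the 3 comparisons. Without E11.5 C, 905 were called from E11.5 to E12.5. The weights put 218 on E11.5 B and at most 1.20 on any other array, and their estimation stopped before converging. For the others the cause was not tested.

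Signs of stage changes turned only for those that were not called as deposited. From E10.5 to E11.5, quantile normalization gave 0.44 for Meis2 1417129_a_at, 0.10 for Meis1 1443260_at, 0.44 for Meis1 1450992_a_at, 0.24 for Zic5 1456219_at and 0.60 for Meis2 1457632_s_at, and array weights gave 0.17 for Meis2 1417129_a_at and 0.27 for Meis1 1443260_at. From E11.5 to E12.5, Meis1 1459423_at was -0.014 with quantile normalization, -0.0088 with a pseudocount of 64 and -0.77 with array weights. From E10.5 to E12.5, Meis2 1447861_x_at was -0.16 with array weights, -0.035 with the replicate block and -0.63 as the gene's mean. The first-day change of Zic1 minus Zic4 within arrays, -0.01 as deposited, was 0.92 with quantile normalization, an alternative chosen after seeing the data.

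From E10.5 to E11.5, the ranges with single arrays left out were -0.24 to 0.12 for Meis2 1417129_a_at, -0.12 to 0.019 for Zic2 1421301_at, -0.52 to 0.0017 for Meis2 1440091_at, -0.59 to 0.021 for Meis1 1450992_a_at, -0.45 to 0.18 for Zic5 1456219_at, -0.48 to 0.22 for Meis2 1457632_s_at and -0.11 to 0.52 for Meis1 1459423_at. From E11.5 to E12.5, the ranges with single arrays left out were -0.17 to 0.46 for Meis1 1459423_at. From E10.5 to E12.5, the ranges with single arrays left out were -0.16 to 0.58 for Meis1 1443260_at and -0.13 to 0.36 for Meis2 1447861_x_at.

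Over all probe sets, 34, 492 and 1255 calls in the 3 comparisons became 5, 280 and 531 with the replicate block, and the 34 became 0 with a pseudocount of 64 and 6 without a trend. No array correlated best with its own letter, so the block is no evidence of pairing. The number of arrays, 2 at E12.5, and signals near the filter, such as those of Zic2 and the later ones of Zic4, limit the precision.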
